A study of Mus musculus with 4 samples.

Results

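Peroxiredoxins, thioredoxins and thioredoxin reductases were followed by transcript count in mouse testis sections with and without the histone variant gene H3t. The 10 genes Prdx1 to Prdx6, Txn1, Txn2, Txnrd1 and Txnrd3 were taken by gene symbol from a table of 28595 genes, and each symbol matched 1 row. RNA was profiled by photo-isolation chemistry, in which ultraviolet light frees the ends of copied RNA, so that only the lit area enters the library. The 4 groups were H3t KO testis lit over the entire section, wild-type testis lit over the entire section, H3t KO testis lit only at Leydig cells and wild-type testis lit only at Leydig cells. All were 10 µm sections, with 3 libraries a group and 12 in all. They are called KO sections, WT sections, KO Leydig libraries and WT Leydig libraries here. Titles of the wild-type samples carry the word young, the knockout titles give no age, and neither the age in weeks nor the strain is given in the sources used here. Whether a group's libraries came from separate mice is not stated in the labels. P-values therefore measure only the spread between these libraries, which may be technical. The deposited barcode table puts the 3 libraries of each group under 1 library name, so an effect of that shared name and of the group cannot be told apart.

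Peroxiredoxins are thiol peroxidases that reduce hydrogen peroxide and organic peroxides with an active cysteine. Most are returned to their reduced form by thioredoxin, a small dithiol protein, and thioredoxin is in turn reduced by thioredoxin reductase with electrons from NADPH. In the testis, steroid-making Leydig cells are a known source of oxidants because their steroidogenic cytochromes leak electrons, while developing sperm use thiol oxidation to cross-link their chromatin and tail proteins. Prdx1 and Prdx2 encode cytosolic peroxidases and Prdx3 a mitochondrial one. Prdx4 encodes the peroxidase of the endoplasmic reticulum, Prdx5 one found in mitochondria, peroxisomes and cytosol, and Prdx6 one with a lone active cysteine and a phospholipase activity. Txn1 and Txn2 encode the cytosolic and mitochondrial thioredoxins, Txnrd1 the cytosolic reductase and Txnrd3 a reductase with a fused glutaredoxin domain that is known as abundant in testis.

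Promoter sequence is shown for 4 genes whose counts the results turn on or whose promoter held a searched motif: Prdx1, the most counted gene of the family; Txnrd1; Txn1, high in knockouts; and Txnrd3, high in wild type. Each runs from 250 bases before to 50 bases after a transcription start in RefSeq, on GRCm38.p6, 5′ to 3′ on the gene's strand. Capitals mark a match to TGACNNNGC on either strand, the core letters of the antioxidant response element bound by Nrf2. Prdx1 lies at chr4:116685349-116685648 on the plus strand, the second annotated start of Txnrd1 at chr10:82858956-82859255 on the plus strand, Txn1 at chr4:57956362-57956661 on the minus strand and Txnrd3 at chr6:89643738-89644037 on the plus strand.
Prdx1: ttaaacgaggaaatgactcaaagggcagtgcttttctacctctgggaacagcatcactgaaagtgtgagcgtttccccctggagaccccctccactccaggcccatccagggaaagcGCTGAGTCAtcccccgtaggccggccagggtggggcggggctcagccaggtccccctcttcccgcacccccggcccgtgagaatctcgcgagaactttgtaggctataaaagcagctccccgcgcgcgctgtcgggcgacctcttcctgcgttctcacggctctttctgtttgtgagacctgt
Txnrd1: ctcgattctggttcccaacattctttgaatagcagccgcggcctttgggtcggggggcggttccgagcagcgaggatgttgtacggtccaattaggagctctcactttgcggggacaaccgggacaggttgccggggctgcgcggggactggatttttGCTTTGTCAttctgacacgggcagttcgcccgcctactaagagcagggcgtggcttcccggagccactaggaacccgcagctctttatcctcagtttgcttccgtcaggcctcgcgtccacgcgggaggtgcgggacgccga
Txn1: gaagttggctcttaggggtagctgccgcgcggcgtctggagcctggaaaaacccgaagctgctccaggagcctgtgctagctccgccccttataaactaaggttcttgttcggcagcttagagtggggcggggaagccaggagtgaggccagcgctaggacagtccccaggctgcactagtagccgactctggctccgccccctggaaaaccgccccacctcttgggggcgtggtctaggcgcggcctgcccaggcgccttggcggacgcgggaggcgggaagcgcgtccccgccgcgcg
Txnrd3: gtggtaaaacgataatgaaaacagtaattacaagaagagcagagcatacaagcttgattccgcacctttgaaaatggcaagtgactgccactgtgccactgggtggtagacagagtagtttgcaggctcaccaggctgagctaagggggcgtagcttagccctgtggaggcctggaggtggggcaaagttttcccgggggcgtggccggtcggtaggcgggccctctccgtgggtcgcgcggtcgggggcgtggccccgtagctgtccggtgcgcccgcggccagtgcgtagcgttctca
Windows were found for 9 of the 10 genes, 11 windows in all, and Prdx6 had none. TGACNNNGC occurred in 2 of these genes, starting at position -133 from the Prdx1 start and at -92 from the second Txnrd1 start. It is also found in 12.4% of 32851 such mouse windows. Neither AAGGTCA, a site of the steroidogenic regulator SF1, nor TGACGTCA, the cyclic AMP response element, was found in any of the 11 windows, on either strand. These letters are found in 4.72% and 1.79% of all windows, and no match overlapped another motif.

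Libraries of entire sections held 321771 to 475764 counts in KO and 247539 to 566527 in WT, while Leydig libraries held 15208 to 53003 counts in KO and 5947 to 54882 in WT. WT Leydig replicate 3 stood apart with 5947 counts, 8.76% of them mitochondrial, and only 2 counts of the family. The deleted gene, listed as H3f4, had 1 count over the 12 libraries and could not check any label. Leydig markers, 11 of the 12 listed being in the table, took 3.61% to 4.31% of counts in KO sections and 0.323% to 0.651% in WT sections. They took 6.49% to 7.96% in KO Leydig libraries and 1.31% to 2.84% in WT Leydig libraries, with no marker at 0 in any group. The 13 elongating spermatid markers took 0.0235% to 0.104% in KO sections and 3.07% to 5.65% in WT sections. In KO Leydig libraries they took 0% to 0.0132%, with 7 of the 13 at 0, and in WT Leydig libraries 1.70% to 3.15%. The 12 Sertoli markers in the table took 1.59% to 1.71% in KO sections and 0.342% to 0.643% in WT sections, with none at 0. Macrophage markers took 0.150% to 0.375% in KO and 0.0243% to 0.0545% in WT sections, stromal markers 0.761% to 0.794% in KO and 0.171% to 0.287% in WT, and peritubular myoid markers 0.189% to 0.237% in KO and 0.0553% to 0.117% in WT. The 10 spermatocyte markers took 0.0137% to 0.0209% in KO and 0.293% to 0.342% in WT sections. The 9 spermatogonia markers took 0.0715% to 0.0786% in KO and 0.0553% to 0.0627% in WT sections, with Gfra1 lacking counts in KO sections.

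Summed over the family, KO sections held 2403 ± 104 CPM, counts scaled to the library total (SD, n = 3), and WT sections 1210 ± 157 CPM (SD, n = 3). KO Leydig libraries held 2212 ± 545 CPM and WT Leydig libraries 499 ± 151 CPM (SD, n = 3 each). The 3 KO sections, at 2295 to 2502 CPM, lay above the 3 WT sections, at 1075 to 1382 CPM. KO Leydig libraries, at 1775 to 2822 CPM, lay above WT Leydig libraries, at 336 to 633 CPM. These sums rest on 2843 and 1662 counts in KO and WT sections but on only 247 and 48 in KO and WT Leydig libraries. In such tissue libraries, fewer cells of a type and less RNA per cell cannot be told apart.

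**Figure D1:**
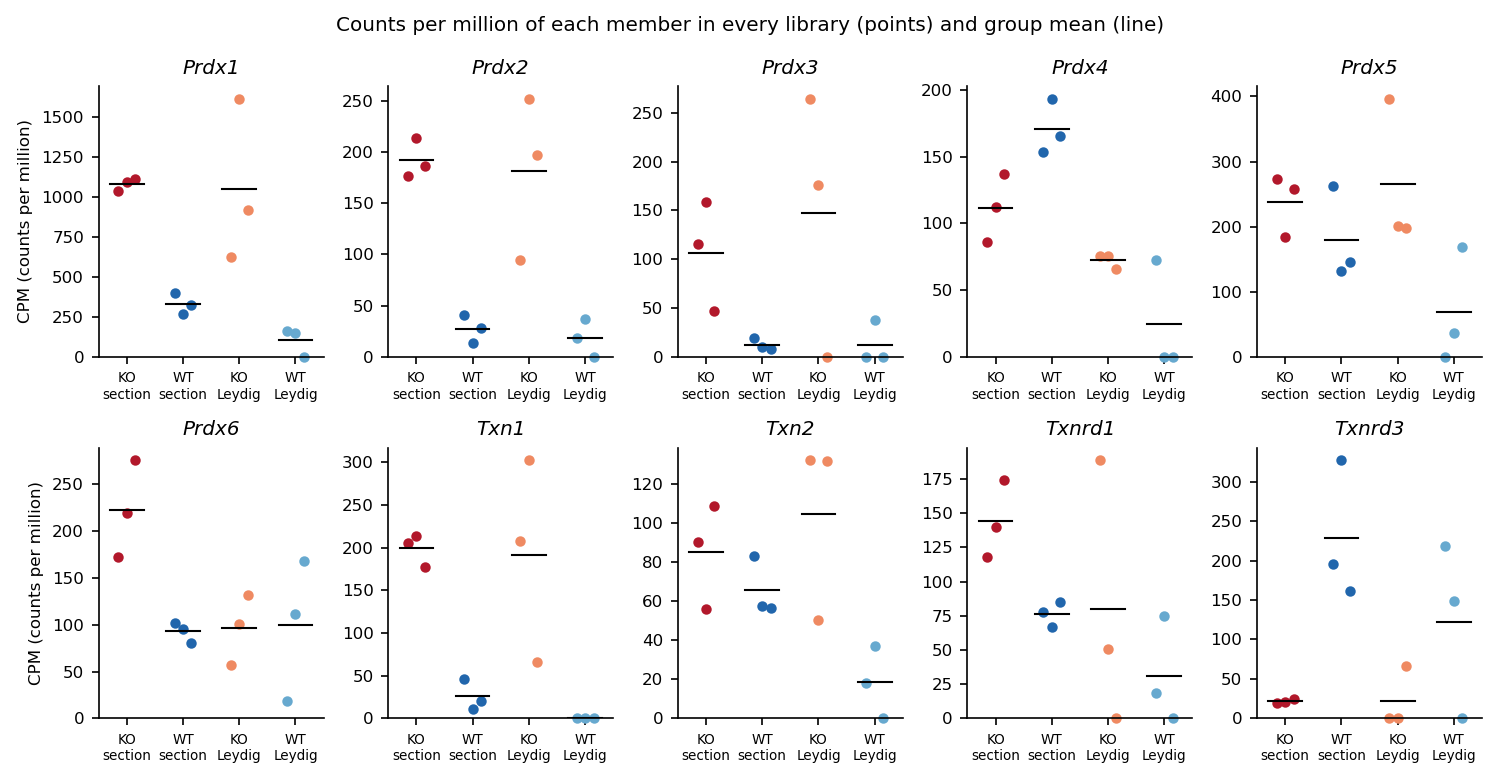
CPM (vertical axes, each on its own scale from 0) of the 10 genes in every library; points are libraries and lines group means, with KO left of WT for entire sections and then for Leydig libraries. The 3 KO sections lay above the 3 WT sections for Prdx1, Prdx2, Prdx3, Prdx6, Txn1 and Txnrd1 and below them for Prdx4 and Txnrd3, with Prdx5 and Txn2 overlapping. The share of all genes without overlap was not counted, so this describes the points only.

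Knockout was compared with wild type in entire sections to ask how the family stood in testes with disrupted spermatogenesis. Prdx1, Prdx2, Prdx3 and Txn1 were higher in KO sections, and Prdx4 and Txnrd3 were lower. Calls were made by edgeR's quasi-likelihood test at a Benjamini-Hochberg adjusted p under 0.05. Thus 4 of the 10 genes were called higher, against 22.6% of all 5182 genes tested, and 2 were called lower, against 39.1%. None of the 4 higher genes kept its call when libraries were scaled to Leydig markers, with Prdx1 at -1.26, Prdx2 at -0.07, Prdx3 at 0.13 and Txn1 at 0.04. Under that scaling only 0.193% of all genes were called higher and 80.9% lower, so few genes of any kind could keep such a call. The median log2 fold change of the 10 was 0.49, with a range of -4.05 to 2.42, and that of all genes tested was -0.35, with quartiles of -2.26 and 0.90. All 10 passed the filter on low counts, which asked for about 66.1 CPM in at least 3 of the 12 libraries. Prdx2, Prdx3 and Txn1 reached that level in knockout libraries alone, and Txnrd3 in wild-type libraries alone, so these had to be high in the genotype that let them pass.

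Among the cytosolic peroxidases, Prdx1 had 1038, 1094 and 1113 CPM in KO sections, against 401, 266 and 323 CPM in WT sections. Every KO section was above every WT section, and the KO values lay within a narrow band. The gene (ENSMUSG00000028691, chromosome 4, 116685544 to 116700822, plus strand, GRCm38) rose by 1.14 ± 0.46 on the log2 scale (SE), with edgeR adjusted p = 0.0220. That call was lost without KO section replicate 1, 2 or 3 or WT section replicate 3, at adjusted p = 0.0688, 0.0526, 0.0701 and 0.0808. Prdx2 (ENSMUSG00000005161, chromosome 8, 84969587 to 84974834, plus strand) had 177, 214 and 187 CPM in KO sections, against 40.6, 13.4 and 28.3 CPM in WT sections. Here too all KO sections were above all WT sections. Prdx2 rose by 2.24 ± 0.47 (edgeR adjusted p = 5.93e-06).

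For the mitochondrial peroxidase Prdx3 (ENSMUSG00000024997, chromosome 19, 60864051 to 60874556, minus strand), KO sections had 116, 158 and 46.6 CPM and WT sections 19.4, 9.57 and 8.08 CPM. KO section replicate 3 was the lowest of its group and still above every WT section. Prdx3 rose by 2.42 ± 0.52 (edgeR adjusted p = 1.38e-05). Prdx5 (ENSMUSG00000024953, chromosome 19, 6906697 to 6910106, minus strand), by contrast, had 273, 184 and 258 CPM in KO sections and 263, 132 and 145 CPM in WT sections. The groups overlapped, and the fold change of -0.15 ± 0.43 did not pass the test (edgeR adjusted p = 0.776), with a 95% interval of -1.01 to 0.70. Its sign turned with the library scaling, to 0.39 with library size alone.

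Prdx4, the peroxidase of the endoplasmic reticulum (ENSMUSG00000025289, chromosome X, 155323918 to 155340754, minus strand), had 86.2, 112 and 137 CPM in KO sections. WT sections had 154, 193 and 166 CPM, all above the KO sections. Prdx4 fell by 1.23 ± 0.43 on the log2 scale (log2 fold change -1.23 ± 0.43, edgeR adjusted p = 0.00863). The call was lost without KO section replicate 1, WT section replicate 1 or WT section replicate 2, at adjusted p = 0.0867, 0.0551 and 0.0510, and with library size alone, at 0.146. Prdx6 (ENSMUSG00000026701, chromosome 1, 161240112 to 161251219, minus strand) had 172, 219 and 277 CPM in KO sections and 102, 95.7 and 80.8 CPM in WT sections. These groups did not overlap, yet the fold change of 0.65 ± 0.43 missed the threshold (edgeR adjusted p = 0.183). Prdx6 was called higher with library size alone (1.24, adjusted p = 0.00371), with DESeq2 size factors (1.09, 0.0193), with DESeq2's own test (1.10, 0.00454) and in a fit of the sections alone (0.98, 0.00588). In the edgeR fit of all groups it also passed without KO Leydig replicate 3, WT Leydig replicate 1 or WT Leydig replicate 3, at adjusted p = 0.0431, 0.0224 and 0.0197, although none of them is a section.

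Of the electron carriers, the cytosolic thioredoxin Txn1 (ENSMUSG00000028367, chromosome 4, 57943373 to 57956411, minus strand) had 206, 214 and 177 CPM in KO sections, against 45.9, 11.5 and 20.2 CPM in WT sections. The groups stood well apart, with 239 counts in KO and 37 in WT sections. Txn1 rose by 2.33 ± 0.47 (edgeR adjusted p = 2.62e-06). The mitochondrial thioredoxin Txn2 (ENSMUSG00000005354, chromosome 15, 77915047 to 77929006, minus strand) had 90.4, 56.1 and 109 CPM in KO sections and 83.0, 57.4 and 56.6 CPM in WT sections. Its groups overlapped, and its fold change was -0.22 ± 0.44 (edgeR adjusted p = 0.687), with a 95% interval of -1.08 to 0.65. With library size alone it was 0.34. The cytosolic and mitochondrial thioredoxins thus gave log2 fold changes of 2.33 and -0.22 in the same libraries, and the difference between the genes was not tested.

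The reductases gave the widest contrast. Txnrd3 (ENSMUSG00000000811, chromosome 6, 89643988 to 89675529, plus strand) had 18.9, 20.4 and 24.9 CPM in KO sections, against 196, 327 and 162 CPM in WT sections. All 3 KO sections were far below the lowest WT section, with 25 counts in KO and 322 in WT. The log2 fold change was -4.05 ± 0.51 (edgeR adjusted p = 2.66e-14), the farthest from 0 in the family in this comparison. Txnrd1 (ENSMUSG00000020250, chromosome 10, 82833951 to 82897712, plus strand) had 118, 140 and 174 CPM in KO sections and 77.7, 66.97 and 84.8 CPM in WT sections. Its fold change of 0.33 ± 0.42 did not pass (edgeR adjusted p = 0.507), with a 95% interval of -0.50 to 1.16, although the CPM did not overlap. With library size alone it was 0.91 and called higher (edgeR adjusted p = 0.0318). The third mammalian reductase, Txnrd2, was too low to test, with 9 counts in KO sections and 6 in WT sections.

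These fold changes depended on what the libraries were scaled to. With the trimmed mean of M values (TMM), used above, the median over all genes was -0.35. It was 0.22 with library size alone, -1.52 when libraries were scaled to the summed Sertoli list and -2.76 when scaled to the Leydig list. Of the called genes, 36.6% were higher in KO sections with TMM and 52.2% with library size alone. Scaled to the Sertoli list, Prdx2, Prdx3 and Txn1 were still called higher, at 1.14, 1.34 and 1.26, against 3.65% of all genes, while Prdx1 was at -0.03. Prdx2, Prdx3 and Txn1 reached the filter's CPM in knockout libraries alone, so these calls carry no weight of their own. Against the Leydig list none of the 10 was called higher and 6 were lower, against 0.193% and 80.9% of all genes, with Prdx1 at -1.26, Prdx2 at -0.07, Prdx3 at 0.13 and Txn1 at 0.04. Relative to the 11 Leydig genes, Prdx2, Prdx3 and Txn1 had log2 fold changes near 0, Txnrd3 was at -6.56 and Prdx4 at -3.70. Txnrd3 was called lower under each of these scalings, but it reached the filter's CPM in wild-type libraries alone, so these calls carry no weight of their own. With the Sertoli and Leydig lists, 58.5% and 80.9% of all genes were called lower. The part of the cell type markers in any of these changes was not tested.

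**Figure D2:**
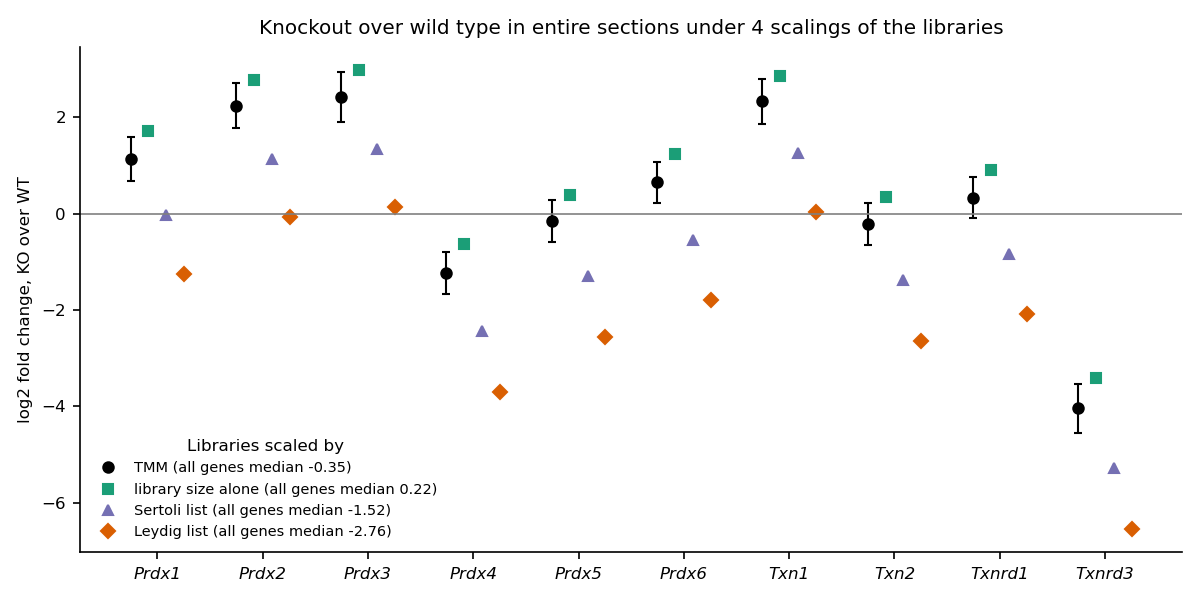
Log2 fold change of KO over WT sections (vertical axis) for each gene under 4 scalings of the libraries; black points are TMM values with bars of 1 SE, and the legend gives the median over all genes for each scaling. Prdx2, Prdx3 and Txn1 lie above 0 under TMM, library size and the Sertoli list and between -0.07 and 0.13 under the Leydig list, while Txnrd3 lies lowest throughout.

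Composition within the family does not depend on library scaling. Prdx1 made up 45.0% ± 0.477 of the family's counts in KO sections and 27.2% ± 3.996 in WT sections (SD, n = 3 each). Txnrd3 made up 0.888% ± 0.0923 in KO sections and 19.0% ± 7.68 in WT sections, and Prdx4 4.62% ± 0.856 in KO and 14.3% ± 2.84 in WT sections. The shares of Txn1 and Prdx2 were 8.31% ± 1.07 and 8.01% ± 0.764 in KO sections, against 2.06% ± 1.18 and 2.24% ± 0.961 in WT sections. By mean share of counts, Prdx1 ranked first in sections of both genotypes, followed by Prdx5 at 9.94% ± 2.17 and Prdx6 at 9.22% ± 1.78 in KO sections. In WT section replicate 2, however, Txnrd3 was ahead of Prdx1, at 27.9% against 22.7%. In WT sections Txnrd3, Prdx5 (14.6% ± 3.996) and Prdx4 came next, with overlapping spreads. The libraries read transcript ends by the known method, so counts were not divided by length. Each of these 5 shares differed without overlap, but 3 against 3 libraries cannot give an exact 2-sided permutation p below 0.1, and none of the 40 shares tested passed after adjustment (lowest adjusted p = 0.364). In Leydig libraries Prdx1 took 46.5% ± 14.1 in KO and 18.2% ± 16.2 in WT, and Txnrd3 1.23% ± 2.14 in KO and 21.6% ± 20.8 in WT, with groups that overlapped.

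**Figure D3:**
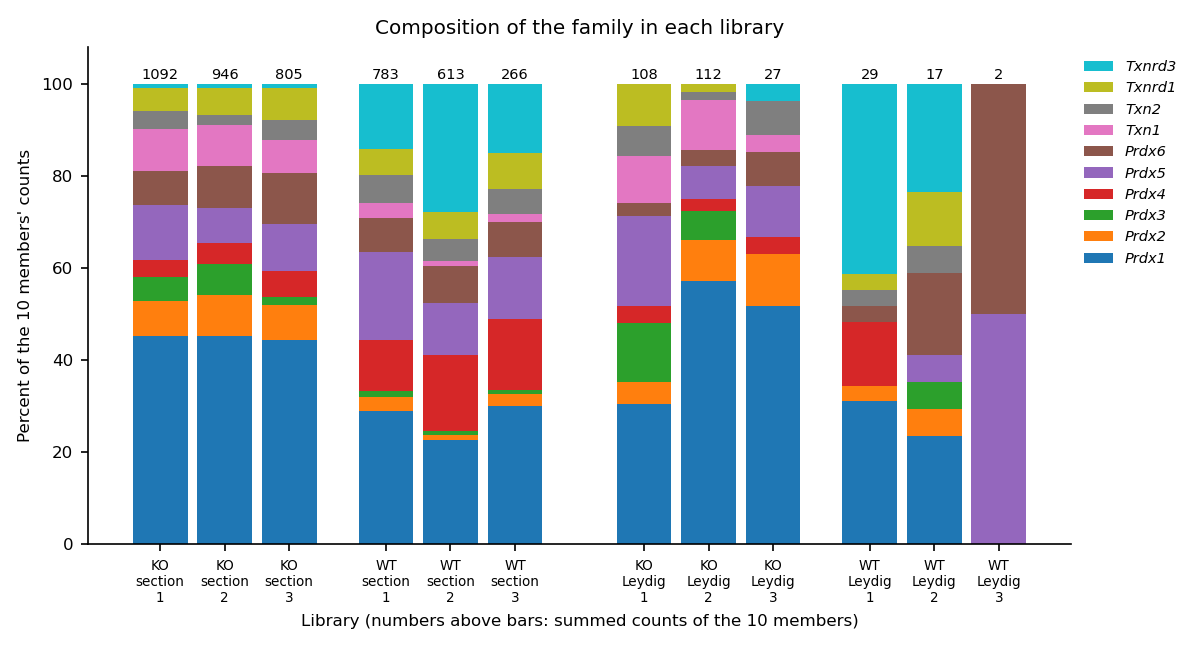
Percent of the family's summed counts (vertical axis, stacked to 100) taken by each gene in each of the 12 libraries; numbers above the bars are the summed counts. Txnrd3 and Prdx4 fill a larger part of WT sections, and Prdx1, Prdx2 and Txn1 a larger part of KO sections, while WT Leydig replicate 3 rests on 2 counts.

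Leydig libraries were compared between genotypes to ask the same question at the irradiated Leydig areas. Prdx1, Prdx2, Prdx3, Prdx5 and Txn1 were called higher in KO Leydig libraries and Txnrd3 lower, so 5 of the 10 were higher, against 7.55% of the 5182 genes tested, and 1 was lower, against 20.9%. The median log2 fold change of the 10 was 2.27, or 2.19 with Txn1 at its lower bound, and that of all genes was -0.28. Prdx2, Prdx3 and Txn1 reached the filter's CPM in knockout libraries alone, and Txnrd3 in wild-type libraries alone. Calls of these genes therefore carry no weight of their own here. Most calls rest on few wild-type counts. Leydig markers also took a larger share of the KO Leydig libraries, and spermatid markers of the WT ones, as given above. Mean shares in KO and WT Leydig libraries were 0.803% and 0.403% for Sertoli, 0.784% and 0.267% for stromal and 0.168% and 0.0339% for macrophage markers. They were 0.0995% and 0.0395% for spermatogonia, 0.0104% and 0.412% for spermatocyte and 0.124% and 0.119% for peritubular myoid markers. The part of all these markers in the calls was not tested.

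Prdx1 had 623, 1613 and 921 CPM in KO Leydig libraries, against 164, 149 and 0 CPM in WT Leydig libraries. It was the only member with more than 5 wild-type Leydig counts among those called higher, at 111 in KO and 13 in WT, and no library overlapped. Prdx1 rose by 2.66 ± 0.65 (edgeR adjusted p = 6.82e-04), and by 2.11 without WT Leydig replicate 3 (adjusted p = 0.00451). Txn1 had 11, 12 and 1 counts in KO Leydig libraries and 0 in each WT Leydig library. Its TMM-scaled count was at least 5.57-fold higher in KO, taking a floor of 3 counts over the wild-type group (edgeR adjusted p = 0.00102). The call was lost without WT Leydig replicate 1 (adjusted p = 0.0566).

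Prdx5 had 21, 8 and 3 counts in KO Leydig libraries and 0, 1 and 1 in WT Leydig libraries. On these 2 wild-type counts its ratio was 11.1, with a 95% counting interval of 2.84 to 95.9 (edgeR adjusted p = 0.00786). In CPM, the lowest KO library was at 197 and the highest WT library at 168, so the groups did not overlap. Prdx3 had 14, 7 and 0 counts in KO and 0, 1 and 0 in WT Leydig libraries, a ratio of 14.6 (2.35 to 604 by counting error, edgeR adjusted p = 0.0123). KO Leydig replicate 3 had none, so the groups overlapped. Both calls were lost without KO Leydig replicate 1 (adjusted p = 0.0772 for Prdx5 and 0.101 for Prdx3) and without WT Leydig replicate 1 (0.248 for each). Prdx2 had 5, 10 and 3 counts in KO and 1, 1 and 0 in WT Leydig libraries, a ratio of 6.26 (1.4998 to 55.7) with edgeR adjusted p = 0.0475. All KO libraries lay above all WT ones in CPM. Leaving out any of 10 of the 12 libraries in turn lost the Prdx2 call, and across all 12 the adjusted p ran from 0.0354 to 0.308.

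Txnrd3 ran the other way, with 0, 0 and 1 counts in KO Leydig libraries and 12, 4 and 0 in WT Leydig libraries. KO Leydig replicate 3, at 65.8 CPM, was above WT Leydig replicate 3, at 0, so the groups overlapped. On 1 knockout count Txnrd3 was 23.0-fold lower (3.57 to 964 by counting error, edgeR adjusted p = 0.00387). The call was lost without KO Leydig replicate 1 (adjusted p = 0.0530) and without WT Leydig replicate 1 (0.105). Prdx4, with 8 counts in KO and 4 in WT, Prdx6, with 9 and 5, Txn2, with 11 and 2, and Txnrd1, with 12 and 3, did not pass. Their log2 fold changes were 0.51 ± 1.09, 0.31 ± 1.01, 1.90 ± 1.17 and 1.38 ± 1.06. Without 1 library the sign of Prdx4, Prdx6 and Txnrd1 turned in at least 1 fit. Scaled to the Leydig list, Txn1 alone remained called higher, against 0.521% of all genes, and Prdx1 was at 0.95 (edgeR adjusted p = 0.325). Txn1 reached the filter's CPM in knockout libraries alone, so its call carries no weight of its own. Without WT Leydig replicate 3, 4 genes were called higher and 1 lower, against 4.4% and 24.6% of all genes.

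Whether the genotype difference itself differed between Leydig libraries and entire sections was tested by interaction. None of the 10 genes was called by edgeR, against 0.193% of all genes called higher and 0.135% called lower, and 2 had an unadjusted p under 0.05. Prdx5 was one of them, at 3.48 ± 1.14 on the log2 scale (unadjusted p = 0.00222, edgeR adjusted p = 0.143), being called higher in Leydig libraries and not in sections. Txn1 was the other (edgeR adjusted p = 0.485), and the adjusted p of the 10 ran from 0.143 to 0.978. The alternatives run gave no interaction call for any member.

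Set against entire sections of their own genotype, KO Leydig libraries gave no call among the 10 genes by edgeR, while 1.91% of all genes were called higher and 3.53% lower. Only Prdx6 had an unadjusted p under 0.05, with 56.6, 100.8 and 131.5 CPM in KO Leydig libraries and 172, 219 and 277 CPM in KO sections. The groups did not overlap, and the log2 fold change was -1.57 ± 0.65 (edgeR adjusted p = 0.126), which passed without WT Leydig replicate 1 (0.0323) or WT Leydig replicate 3 (0.0270). The 10 fold changes ran from -1.57 to 0.59, with a median of -0.30 against -0.42 for all genes. Prdx1 averaged 1052 ± 508 CPM in KO Leydig libraries and 1082 ± 38.6 CPM in KO sections (SD, n = 3 each), and Txn1 192 ± 119 and 199 ± 19.5 CPM. Leydig markers took 7.20% ± 0.732 of counts in KO Leydig libraries and 4.02% ± 0.366 in KO sections.

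In wild type, 3 of the 10 genes were called lower in Leydig libraries than in entire sections, against 12.4% of all genes, and none was called higher, against 3.22%. They were Prdx1, Prdx4 and Prdx5. Prdx1 had 164, 149 and 0 CPM in WT Leydig libraries, below all WT sections at 266 to 401 CPM, with a log2 fold change of -1.77 ± 0.64 (edgeR adjusted p = 0.0407). Prdx4 had 4 counts in WT Leydig libraries and 229 in WT sections, at -2.52 ± 0.79 (edgeR adjusted p = 0.0158). Prdx5 had 2 counts in WT Leydig libraries and 254 in WT sections, 12.1-fold lower (3.32 to 100.6 by counting error, edgeR adjusted p = 0.00563). WT Leydig replicate 3, at 168 CPM on 1 count, was above WT section replicates 2 and 3, at 132 and 145 CPM, so the groups overlapped. The Prdx5 call was lost without WT Leydig replicate 1 (edgeR adjusted p = 0.235) and without WT section replicate 1 (0.0772). Without WT Leydig replicate 3, Prdx5 alone was called, and adjusted p was 0.214 for Prdx1 and 0.1005 for Prdx4. Leaving out other libraries gave 0 to 3 calls, with 0 without WT section replicate 1 and 1 without WT section replicate 2, WT Leydig replicate 1 or WT Leydig replicate 2. Prdx1 was called in only 2 of the 12 fits that left out a library. In those 12 fits 4.52% to 13.3% of all genes were called lower. Txn1, at 0 counts in WT Leydig libraries and 37 in WT sections, was at least 1.18-fold lower and not called (edgeR adjusted p = 0.134). Prdx6 and Txnrd3, at 5 and 16 WT Leydig counts, were not called either.

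Across the 5 lists of other thiol redox genes, 51 genes were in the table and 27 could be tested. In entire sections 8 of them were higher in KO and 10 lower, against the 22.6% and 39.1% of all genes given above, with a median of -0.61 over the 27. Of 12 thioredoxin partners, 4 could be tested and 2 rose. Txnip, an inhibitor of thioredoxin, had 94.6, 145 and 77.7 CPM in KO sections and 24.7, 11.5 and 12.1 CPM in WT sections, and rose by 2.06 ± 0.51 (edgeR adjusted p = 1.61e-04). Sesn1, a stress-induced protein of the sestrin family, rose by 2.79 ± 0.49 (edgeR adjusted p = 6.12e-08). Rrm1, the large subunit of ribonucleotide reductase that thioredoxin supplies with electrons, was at -0.87 ± 0.46, and Msrb3, a methionine sulfoxide reductase, at -0.46 ± 0.46, neither passing. In the Nrf2 list, 3 of 9 could be tested and 2 rose in KO sections. Nfe2l2, which encodes Nrf2, rose by 2.12 ± 0.46 and Slc7a11, the cystine transporter subunit, by 1.30 ± 0.57, while Gclm, of glutathione synthesis, was at -0.61 ± 0.42 and did not pass.

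Of 14 further thioredoxin-like proteins, 9 could be tested, and 6 were lower in KO sections and 2 higher, against 39.1% and 22.6% of all genes. Txndc8 and Txndc2, sperm thioredoxins, had 0 and 15 counts in KO sections and 169 and 208 in WT sections. Txndc8 was at least 74.8-fold lower and Txndc2 fell by 4.16 ± 0.52 (log2 fold change -4.16 ± 0.52). Nme8, a thioredoxin domain protein of the axoneme, had 1 count in KO and 107 in WT sections, and Nxn, nucleoredoxin, was at -3.70 ± 0.49. Txndc8, Txndc2, Nme8 and Nxn reached the filter's CPM in wild-type libraries alone, and Glrx, Slc7a11 and Txndc15 in knockout libraries alone, so these 7 of the 27 genes tested had to differ, and their calls carry no weight of their own. Among 3 tested of 5 glutaredoxin genes, Glrx2 and Glrx3 were lower, at -3.62 ± 0.49 and -1.52 ± 0.45, and the cytosolic Glrx was higher, at 2.74 ± 0.55. Glrx had 94.6, 145 and 65.3 CPM in KO sections and 12.4, 3.83 and 16.2 CPM in WT sections, with no overlap. Of 11 oxidative folding genes of the endoplasmic reticulum, where Prdx4 acts, 8 could be tested. P4hb, protein disulfide isomerase, rose by 1.49 ± 0.48, the oxidase gene Ero1lb fell by 2.64 ± 0.47 (-2.64 ± 0.47) and Tmx1 fell by 1.001 ± 0.430 (-1.001 ± 0.430). Tmx3, at 1.05 ± 0.52, did not pass. Leydig, Sertoli, macrophage, stromal, peritubular myoid and spermatogonia markers took larger shares of KO sections. Spermatocyte and spermatid markers took larger shares of WT sections, and the part of all these markers was not tested.

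**Figure D4:**
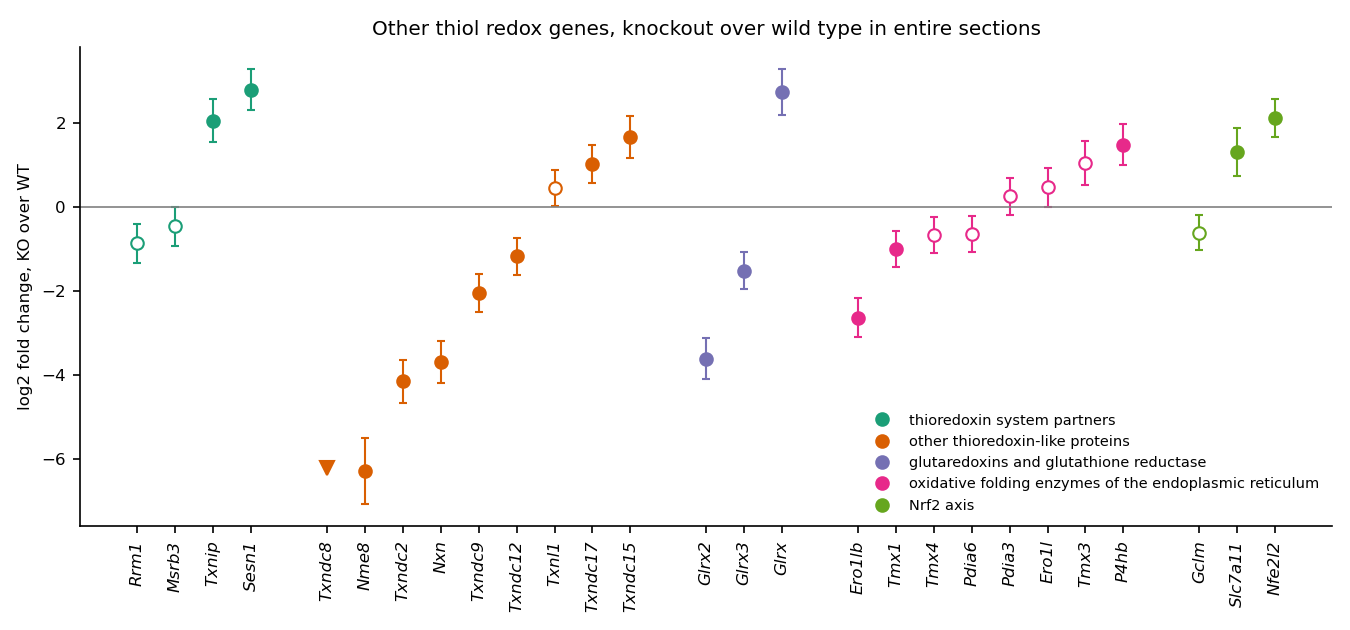
Log2 fold change of KO over WT sections (vertical axis) for the 27 tested genes of 5 thiol redox lists, with bars of 1 SE; filled points passed the test, open points did not, and the triangle for Txndc8, with no KO count, marks the bound of its fold. Nme8, Txndc8 and Txndc2 lie lowest, and Sesn1 and Glrx highest.

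In Leydig libraries 4 of these 27 genes were higher in KO and 4 lower, against 7.55% and 20.9% of all genes. None of the 8 folding genes was called. Among the called genes, Glrx and Slc7a11 reached the filter's CPM in knockout libraries alone, and Txndc8, Txndc2 and Nme8 in wild-type libraries alone. Calls of these genes carry no weight of their own here either. Glrx had 21 counts in KO Leydig libraries and 0 in WT, at least 4.87-fold higher (edgeR adjusted p = 0.00154). Txnl1, a thioredoxin-like proteasome-associated protein, had 19 and 0 counts, at least 4.41-fold higher, and Slc7a11 15 and 0, at least 3.48-fold higher. Txnip had 31 counts in KO and 3 in WT Leydig libraries, a ratio of 7.19 (2.24 to 36.8 by counting error, edgeR adjusted p = 0.00991). The 4 lower genes were Txndc8 (0 and 9 counts), Txndc2 (1 and 13), Nme8 (0 and 5) and Glrx2 (2 and 15), each with its KO count before its WT count. Nfe2l2, with 16 counts in KO and 6 in WT Leydig libraries, did not pass (edgeR adjusted p = 0.501).

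To place each gene among other genes tested, the 2 nearest genes were found by the root mean square difference of centred log2 CPM over the 12 libraries, where 0 would be an identical pattern. Left out of this search were the family's own members, Gm and Rik gene models, clone-named genes, mitochondrial genes and ribosomal protein genes. Prdx1 lay closest to Oat, ornithine aminotransferase, at 0.447, and to Slc29a1, a nucleoside transporter, at 0.480. Prdx2 lay closest to Adh1, an alcohol dehydrogenase, at 0.397 and Txn1 to Cdk2ap2 at 0.455 and Akr1b8, an aldo-keto reductase, at 0.564. Txnrd3 lay closest to Nol4l at 0.482 and to Ccdc114, an axonemal docking protein, at 0.534, which had 23 counts in KO sections and 210 in WT sections. Prdx3 lay closest to the potassium channel gene Kcnk1 (0.562), Prdx4 to the kinase gene Cdk13 (0.365), Prdx5 to the linker histone gene H1f0 (0.599) and Prdx6 to Rasgef1b (0.516). Txnrd1 was nearest to Lrpprc, a mitochondrial RNA-binding protein, at 0.286, and Txn2 to Cyth3 at 0.423. The median distance from a member to all genes was 1.39 to 2.001. Within the family the closest pairs were Prdx2 and Txn1, at 0.885, and Prdx1 and Prdx2, at 0.894, and the farthest was Txn1 and Txnrd3, at 3.29. All genes share the same libraries and depths, so these distances are a description.

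Several members share sequence or position with other genes, and the notes do not say how such reads were counted. Prdx6 has a near copy, Prdx6b, 90.1% identical over 1444 bases, with 0, 2 and 1 counts in KO sections and 60, 67 and 21 in WT sections. Summed with it, Prdx6 was at -0.44 in sections and -1.25 in Leydig libraries, against 0.65 and 0.31 alone, and was not called either way. Txnrd1 contains Eid3 on the same strand, with 1, 0 and 1 counts in KO sections and 182, 273 and 90 in WT sections. Prdx2 overlaps Rnaseh2a on the opposite strand, with 12, 4 and 16 counts in KO sections and 63, 48 and 27 in WT sections. It also overlaps Junb on the opposite strand, with 3, 3 and 1 counts in KO sections and 0, 0 and 1 in WT sections. The part of either gene in the Prdx2 counts was not tested. Prdx5 overlaps Trmt112, which was not analysed here. Annotated copies, 3 of Prdx1 and 1 of Txn1, were not analysed here, so the values of Prdx1, Prdx2, Prdx5, Prdx6, Txn1 and Txnrd1 are uncertain to the extent that reads were shared.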

How the data were processed

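The authors deposited whole-number counts per gene for 12 libraries, without normalization. Tools named in the submitters' processing notes are HISAT2, featureCounts, UMI-tools and Trim Galore, with GRCm38 as the genome; neither versions nor the strand and multi-mapping options were given there. Positions are from GENCODE M21 and promoters from RefSeq. Of 28595 genes, 2206 had no count.

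One edgeR 4.0.16 model (R 4.3.3, robust quasi-likelihood, TMM) held all 12 libraries with a coefficient for each group. Its expression filter (minimum count 10, about 66.1 CPM in 3 libraries) left 5182 genes, and p-values were Benjamini-Hochberg adjusted over them. CPM in the text are scaled by library total, and fold changes by TMM. Where the lower group held 1 to 3 counts, pooled TMM-scaled counts give a ratio with an exact 95% interval; with 0, a floor of 3 counts over the group was used. Both cover counting error only. DESeq2 1.42.0 and other scalings and filters were alternatives, and the code was tested on simulated data.

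Named genes were all members, up to 4 genes of each list by p in each genotype comparison and the 2 nearest genes of each member. Members and lists were chosen with earlier results of these data known. Same-numbered KO and WT sections deviated together (correlations across genes 0.243, 0.132 and 0.194), and other-numbered ones ran from -0.149 to -0.0218. Same-numbered KO and WT Leydig libraries did not (-0.0036, 0.0082 and -0.0063). WT Leydig replicate 1 and WT section replicate 2, of different numbers, reached 0.127, so such values do not establish pairs.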

Additional observations from a re-analysis of the deposited data

Results flagged for a closer look

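Sesn1, a sestrin listed among the thioredoxin partners, was flagged because its genotype difference was not the same in Leydig libraries as in entire sections. It was higher in KO sections than in WT sections by 2.79 ± 0.49 on the log2 scale, with 221 and 25 counts in KO and WT. In Leydig libraries it was at -1.24 ± 0.75, with 10 counts in KO and 17 in WT, and was not called (edgeR adjusted p = 0.216). The interaction was -4.03 ± 0.90 (edgeR adjusted p = 0.00635). Replicate 3 of the KO Leydig libraries, of the WT Leydig libraries and of the WT sections had no Sesn1 count.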

How the results depend on the processing

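In entire sections (4 higher, 2 lower), library size alone gave 6 higher, adding Prdx6 and Txnrd1, and 1 lower, losing Prdx4 (all genes 35.9% and 32.9%). Own libraries gave 5 higher, adding Prdx6 (all genes 30.2%). DESeq2 size factors (all genes 31.5% and 34%) and DESeq2's own test (31.9% and 34%) each gave 5 higher, adding Prdx6, and 1 lower. No filter gave 4 and 1 (9.16% and 17.6%). Each of these last 3 settings lost Prdx4. The Sertoli list gave 3 higher and 4 lower (all genes 3.65% and 58.5%) and the Leydig list 0 and 6 (0.193% and 80.9%). In Leydig libraries (5 higher, 1 lower), 1 was higher scaled to the Leydig list (all genes 0.521%) and 2 scaled to the Sertoli list (2.51%). With no filter 0 were lower (1.66%). From those libraries alone 1 was higher and 0 lower (21.5% and 19.9%). Only 1 of the 10 members, Prdx1, passed the filter there, among 418 genes tested. Against sections, KO Leydig libraries (0 lower) gave 1 lower scaled to the Leydig list (all genes 9.88%). WT ones (3 lower) gave 1 with library size alone (4.65%), 1 of 6 members tested from own libraries (5.2%), 8 scaled to the Leydig list (58.3%) and 0 scaled to the Sertoli list (2.08%). Leaving out a library gave 3 to 5 higher and 1 to 2 lower in sections (all genes 17.6% to 30.6% and 33.6% to 39.5%). In Leydig libraries it gave 1 to 5 higher and 0 to 1 lower (1.33% to 8.26% and 10.1% to 24.6%). Region comparisons gave 0 to 1 lower in KO (1.22% to 9.44%) and 0 to 3 lower in WT (4.52% to 13.3%). There were 0 calls in the interaction and 0 passing shares. With the replicate number as a block, sections kept 4 and 2 calls (all genes 21.6% and 38.4%). Prdx2 in Leydig libraries (2.64, edgeR adjusted p = 0.0625) and Prdx1 in the WT region comparison (-1.81, 0.0570) lost theirs. The cause of these shifts was not tested.

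Signs that turned were, in sections, Prdx5 and Txn2 at 0.39 and 0.34 (library size), 0.29 and 0.23 (DESeq2 size factors), 0.29 and 0.23 (DESeq2), 0.17 and 0.11 (no filter) and 0.16 and 0.11 (own libraries). Scaled to the Leydig list, Prdx1, Prdx2, Prdx6 and Txnrd1 were at -1.26, -0.074, -1.79 and -2.08, and to the Sertoli list Prdx1, Prdx6 and Txnrd1 at -0.027, -0.54 and -0.85. In Leydig libraries Prdx4, Prdx6 and Txnrd1 were at -1.19, -1.36 and -0.31 by the Leydig list, and Prdx4 and Prdx6 at -0.19 and -0.45 by the Sertoli list. Prdx6 with its copies was at -0.44 and -1.25. In the KO region comparison Txn1 was at 0.12 (library size) and 0.087 (own libraries), Prdx3, Prdx5 and Txn2 at -0.080, -0.56 and -0.51 (Leydig list), Prdx5 and Txn2 at -0.39 and -0.38 (no filter), Prdx5 at -0.017 (block), and Prdx1, Prdx2, Prdx4, Txn1 and Txnrd1 at 1.03, 0.83, 0.35, 1.05 and 0.43 (Sertoli list). In WT Prdx3 was at 0.0075 (Sertoli list). In the interaction Prdx6 and Txnrd3 were at 0.44 and 0.73 (Leydig list) and 0.10 and 0.22 (Sertoli list), and Txnrd3 at 0.042 (no filter).

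With a library left out, signs turned within -0.27 to 0.49 for Prdx5 and -0.44 to 0.27 for Txn2 in sections, and -0.029 to 6.63 for Prdx4, -0.74 to 1.08 for Prdx6 and -0.19 to 2.42 for Txnrd1 in Leydig libraries. In the KO region comparison the ranges were -0.76 to 0.039 for Prdx1, -0.81 to 0.048 for Prdx2, -0.034 to 0.92 for Prdx3, -0.50 to 0.31 for Prdx5, -0.39 to 0.030 for Txn1 and -0.42 to 0.47 for Txn2, and in WT -5.05 to 0.71 for Prdx3. In the interaction they were -0.60 to 0.86 for Prdx2, -0.36 to 5.64 for Prdx3, -1.74 to 0.43 for Prdx6, -0.52 to 2.09 for Txnrd1 and -4.61 to 0.63 for Txnrd3. Depth limits the Leydig libraries, with 247 and 48 counts of the family in KO and WT.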
